A study of Mus musculus with 5 samples.

Results

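Elastic fibre assembly and lysyl oxidase crosslinking were followed through 10 listed genes, taken by name: Eln, Fbn1, Fbn2, Fbln5, Efemp2, Lox, Loxl1, Loxl2, Loxl3 and Loxl4. Of these, 7 were measured by a probe set that named 1 gene, out of 19938 genes measured in this way. Fbn1 and Efemp2 had no such probe set, and Loxl2 was named only together with another gene, so these 3 are not analysed here. Affymetrix arrays, 1 per group, were hybridised with total RNA of 2 mouse cell types, embryonic stem cells (ESCs) and embryonic fibroblasts (MEFs). The ESC groups carried the labels 2i and S. The MEF groups comprised a control and a pair of 2i MEF groups, 2n and 4n. All 5, the control included, were F1 offspring of the strains 129X1/SvJ and MSM/Ms. In ESC culture 2i commonly means inhibitors of the kinases MEK and GSK3. The labels do not spell out S, 2n or 4n, give no age or passage, and do not say whether an array represents 1 clone, 1 embryo or a pool. Sample titles also carry a number: 4 (control MEFs), 2 (4n MEFs), 36 (S ESCs) and 15, which the 2i ESCs share with the 2n MEFs.

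An elastic fibre has a core of crosslinked elastin on a scaffold of fibrillin microfibrils. Fibulins bring soluble elastin to the scaffold, and copper-dependent lysyl oxidases oxidise lysine side chains so that elastin and collagen molecules become covalently joined. Fibroblasts, smooth muscle cells and mesothelial cells are known producers of this matrix.

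With 1 array per group, 2 arrays could be set side by side without a test, and the number of arrays limits the precision. Values are the deposited linear intensities, and differences are on the log2(intensity + 1) scale. A gene was compared where its brighter array reached the floor, the median of the probe sets of 1 gene on that array (221.6 to 242.1 intensity units). A value below the floor holds an unknown share of background, so a fold against it is uncertain. All 10 ESC markers reached the floor on both ESC arrays and 1 of 10, Klf4, on each MEF array. All 12 fibroblast markers reached it on every MEF array, against 4 and 6 of 12 on the 2i and S ESC arrays. Many deposited values were identical between MEF arrays (45.4% of probe sets for 2n and control, 37.4% for 2n and 4n, 37.9% for 4n and control), so an exact difference of 0 among MEFs is not read as measured equality.

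Upstream sequences are shown for Fbln5 and Loxl4 among the measured members. They were not chosen by expression, although Fbln5 differed between cell types and Loxl4 among the MEFs. Each is the 250 bases before a RefSeq transcription start in GRCm38.p6, written 5′ to 3′ along the gene, and capitals mark the GC box GGGCGG on either strand.
Fbln5, chr12:101819120-101819369, minus strand: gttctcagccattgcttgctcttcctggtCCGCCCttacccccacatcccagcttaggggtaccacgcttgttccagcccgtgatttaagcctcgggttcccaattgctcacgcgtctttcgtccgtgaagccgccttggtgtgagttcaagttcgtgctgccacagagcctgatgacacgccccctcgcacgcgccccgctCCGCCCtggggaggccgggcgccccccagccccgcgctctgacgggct
Loxl4, chr19:42612807-42613056, minus strand: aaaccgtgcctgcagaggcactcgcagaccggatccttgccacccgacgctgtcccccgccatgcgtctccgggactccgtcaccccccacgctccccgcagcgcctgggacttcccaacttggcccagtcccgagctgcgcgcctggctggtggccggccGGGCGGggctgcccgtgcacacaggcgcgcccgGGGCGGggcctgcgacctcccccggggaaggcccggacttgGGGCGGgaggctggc

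The Fbln5 window held 21 CpG dinucleotides and the Loxl4 window 27, where the median over 32817 promoter windows of this length was 6. Fewer CpGs than in the Fbln5 window were found in 83.7% of those windows, and fewer than in the Loxl4 window in 91.4%. The GC box was present in both, and in 32.7% of all windows. On either strand TATAAA (12.4% of all windows), the AP-1 motif TGANTCA (6.75%), CATATG (3.47%) and GTCTAGAC (0.168%) had no match in these windows. The motifs did not overlap each other here, a match is a description of the letters, and a missing match says only that the letters are not in this window. A further start of Fbln5 in the same table had 6 CpGs in its window and no match to any of these motifs.

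**Figure D1:**
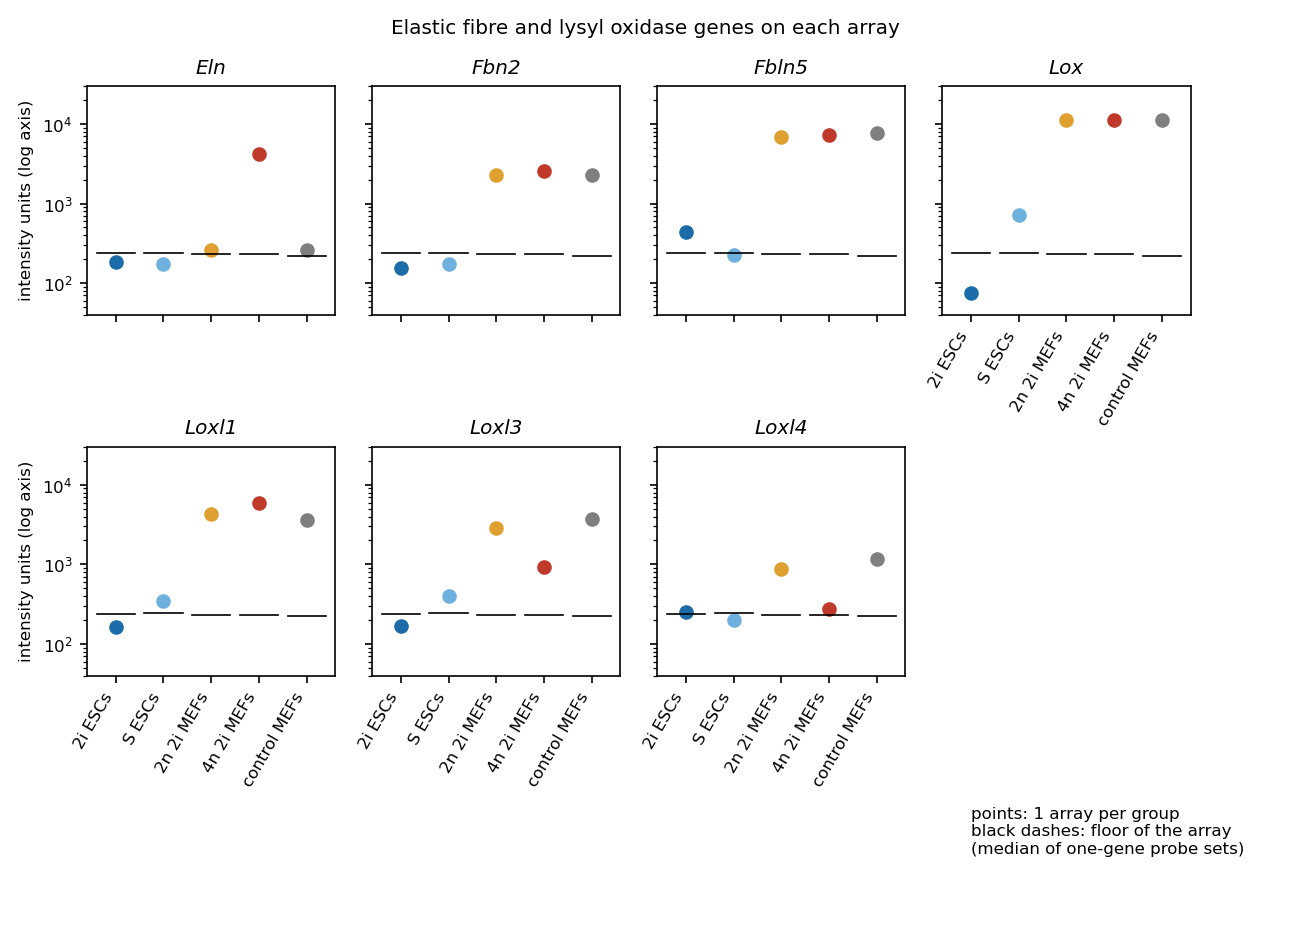
Intensity of the 7 measured members (log axis) on each of the 5 arrays, 1 point per array, with a black dash at the floor of that array. Eln stands high on the 4n 2i MEF array alone (4189 intensity units against 260.7 and 263.4 on the other MEF arrays), while Lox, Fbn2 and Fbln5 are high on all 3 MEF arrays.

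The elastin gene itself was bright on 1 array. Eln (Entrez Gene 13717), which encodes soluble tropoelastin, had 184.3 intensity units on the 2i ESC array, 175.1 on the S ESC array, 263.4 on the 2n 2i MEF array, 4189 on the 4n 2i MEF array and 260.7 on the control MEF array. The 4n array stood far above the rest, the other MEF arrays lay just over the floor, and both ESC arrays lay under it. Eln was higher on the 4n array than on the control array by 4.00 on the log2 scale, and 15.9-fold higher than on the 2n array (3.99). Among the genes compared, these differences ranked 13 from the highest of 10332 and 8 from the highest of 10267. Between the 2n and control arrays the difference was 0.01.

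The fibrillin gene Fbn2 and the fibulin gene Fbln5 had close values on the 3 MEF arrays and low values in ESCs. Fbn2 (Entrez Gene 14119), encoding the microfibril protein fibrillin-2, had 156.7 and 173.3 units on the 2i and S ESC arrays, and 2303, 2530 and 2303 on the 2n, 4n and control MEF arrays. Its values on the 2n and control arrays were identical as deposited. Fbln5 (Entrez Gene 23876), encoding the elastin-binding fibulin-5, had 444.5 units on the 2i ESC array and 227.4 on the S ESC array. It reached 6829, 7357 and 7694 units on the 2n, 4n and control MEF arrays, which lay close together and above both ESC arrays.

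Among the crosslinking enzymes, Lox and Loxl1 were bright on every MEF array, while Loxl3 and Loxl4 were dimmer on the 4n array than on the other MEF arrays. Lox (Entrez Gene 16948), the founding lysyl oxidase, had 75.26 units on the 2i ESC array, 709.2 on the S ESC array and the same deposited value, 11352, on all 3 MEF arrays. Loxl1 (Entrez Gene 16949), an enzyme needed to renew elastic fibres in adult tissue, had 164.2, 349.4, 4327, 5865 and 3662 units in the same order of arrays. The S array exceeded the 2i array for both enzymes, and the 4n array had the most Loxl1.

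Loxl3 (Entrez Gene 16950) and Loxl4 (Entrez Gene 67573) belong to the branch of the family whose enzymes carry scavenger receptor cysteine-rich domains. Loxl3 had 166.7 and 403.5 units on the 2i and S ESC arrays and 2836, 918.2 and 3765 on the 2n, 4n and control MEF arrays. Loxl4 had 254.1 and 197.5 units on the ESC arrays and 863.4, 272.2 and 1162 on the MEF arrays in that order. For both genes the control array was the brightest and the 4n array the dimmest of the MEF arrays, and for Loxl4 the 4n value was close to the ESC values. A dimmer probe set of Loxl4, with 527.2, 200.6 and 768.2 units on the 2n, 4n and control MEF arrays, had the same order.

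The ESC and MEF arrays were then compared as cell types with limma, 2 arrays against 3, whose spread is that between conditions and not between replicates of a condition. Fewer cells of a type and less RNA per cell cannot be told apart in such bulk samples. Of the 7 members, 5 were lower in ESCs (at least 2-fold, with an adjusted p below 0.05), where 16.3% of 11826 genes tested were called lower. None was called higher (16.6% of genes were), with limma also at an unadjusted p under 0.05, since all 7 differences were negative. For all 7 members the highest ESC array lay below the lowest MEF array, narrowly for Eln (184.3 against 260.7 units) and Loxl4 (254.1 against 272.2). The share of all genes with such a gap was not counted, so this describes the values only. All members reached the floor on every MEF array, 5 on 1 ESC array and 0 on both, and Eln and Fbn2 entered the test only through the MEF arrays.

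Lox was at 7.86 ± 2.28 (log2, SD, n = 2) in ESCs and 13.47 ± 0.00 (SD, n = 3) in MEFs. Its difference of -5.61 had an SE of 0.98 and an adjusted p of 0.00930 in limma, with no measured spread among MEFs because of the identical values. The difference was -4.00 without the 2i ESC array and -7.22 without the S ESC array. Fbln5 was 22.8-fold lower in ESCs (8.32 ± 0.68 against 12.83 ± 0.09, SE of the difference 0.31, limma adjusted p = 7.83e-04). Loxl1 was 18.8-fold lower (7.91 ± 0.77 against 12.15 ± 0.34, SE 0.40, limma adjusted p = 0.00170). The spread of these genes within a cell type was small beside the gap between cell types, except for Lox, whose ESC arrays were themselves far apart.

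Fbn2 was 14.3-fold lower in ESCs (7.37 ± 0.10 against 11.22 ± 0.08, SE 0.10, limma adjusted p = 1.69e-04). Its MEF spread includes the identical deposited values of the 2n and control arrays, and both of its ESC values lay under the floor. Loxl3 was 8.22-fold lower (8.02 ± 0.90 against 11.06 ± 1.08, SE 0.76, limma adjusted p = 0.0263). The Loxl3 call was lost on leaving out the 2i ESC, S ESC, 2n 2i MEF or control MEF array (limma adjusted p = 0.193, 0.102, 0.0759 and 0.0580), where the differences were -2.40, -3.67, -2.84 and -2.63. It held without the 4n array (-3.65, limma adjusted p = 0.00975).

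Eln and Loxl4 did not pass. Eln was not called with or without the 4n array, and Loxl4 was called without it. The Eln difference was -1.87 (SE 1.41, limma adjusted p = 0.301), with MEF arrays at 9.37 ± 2.31 (SD, n = 3) and ESC arrays at 7.50 ± 0.05 (SD, n = 2). Without the 4n array it was -0.54 (SE 0.09, limma adjusted p = 0.0141), which is under 2-fold. The Loxl4 difference was -1.53 (SE 0.69, limma adjusted p = 0.118), and without the 4n array -2.16 (SE 0.23, limma adjusted p = 0.00569).

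In 2i ESCs, 3 lysyl oxidase genes were at least 2-fold dimmer than in S ESCs and no member was at least 2-fold brighter. Of 10461 genes compared, 2.54% passed 2-fold towards lower 2i signal and 2.79% towards higher. Of the 7 members, 5 reached the floor on an ESC array. Lox was 9.31-fold lower on the 2i array (log2 difference -3.22), a difference that ranked 8 from the lowest among the genes compared. Loxl3 was 2.41-fold lower (-1.27) and Loxl1 2.12-fold lower (-1.08), and none of these 3 reached the floor in 2i ESCs. Fbln5 went the other way, 1.95-fold higher on the 2i array (0.96), and Loxl4 differed by 0.36. With the arrays quantile-normalized Fbln5 passed 2-fold (1.01), and with the floor at the 75th percentile 0 members were at least 2-fold lower, since the ESC values of these 3 lay beneath it.

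The excess of the S over the 2i array was small beside the MEF signal. Set against the control MEF intensity it came to 5.58% for Lox, 5.06% for Loxl1, 6.29% for Loxl3 and 0.718% for Fbn2. Fbln5 (-2.82%), Loxl4 (-4.87%) and Eln (-3.51%) were lower on the S array. The ESC values of Eln and Fbn2 all lay under the floor. Marker lists of other cell types also differed between the ESC arrays, in both directions. All 12 fibroblast markers were brighter on the S array, by 0.327% (Twist1) to 3.88% (Thy1) of the control MEF intensity, with a median of 1.19%. Their summed intensity was 2632 units on the 2i array and 3880 on the S array, and 4 and 6 of the 12 reached the floor. Of 8 smooth muscle markers 7 were brighter on the S array, with summed intensities of 2158 and 4213 units and 2 and 5 markers over the floor. Their excess ran from -4.98% (Smtn) to 507% (Des) of the control MEF intensity, with a median of 2.73%. The control MEF value of Des (96.31 units) lay under the floor, so its percentage is set against a largely unknown signal. Of 6 epithelial markers compared, 3 were at least 2-fold lower in 2i ESCs and 0 higher, with a median log2 difference of -0.98. Cdh1 was bright on both ESC arrays (6027 units on 2i and 6133 on S) and had 90.56 on each MEF array. Cldn4 had 3841 and 2276 units on the 2i and S ESC arrays and 164.6 on each MEF array. The epithelial list therefore does not separate other cells from ESCs. Epithelial markers summed to 12126 units (2i) and 13995 units (S), with 5 and 6 of 8 over the floor. Higher sums on the 2i than on the S array were found for mesothelial (1757 against 1447 units) and endothelial markers (2809 against 2284). The same held for macrophage (5778 against 4464) and for chondrocyte and bone markers (1532 against 1099). The largest gaps in these lists were those of Msln (721.2 against 147.6 units), Pecam1 (1442 against 1117), Laptm5 (4350 against 3240) and Matn1 (594.2 against 212.8). Of the mesothelial markers compared, 1 was brighter on the 2i array and 2 on the S array, with a median log2 difference of -0.24. Pecam1 and Laptm5 were bright on both ESC arrays, so they do not separate other cells from ESCs either. No defining marker was at 0 on any array, which, with background in every intensity, does not show that a cell type was present. The part of other cells in the Lox, Loxl1 and Loxl3 differences was not tested.

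**Figure D2:**
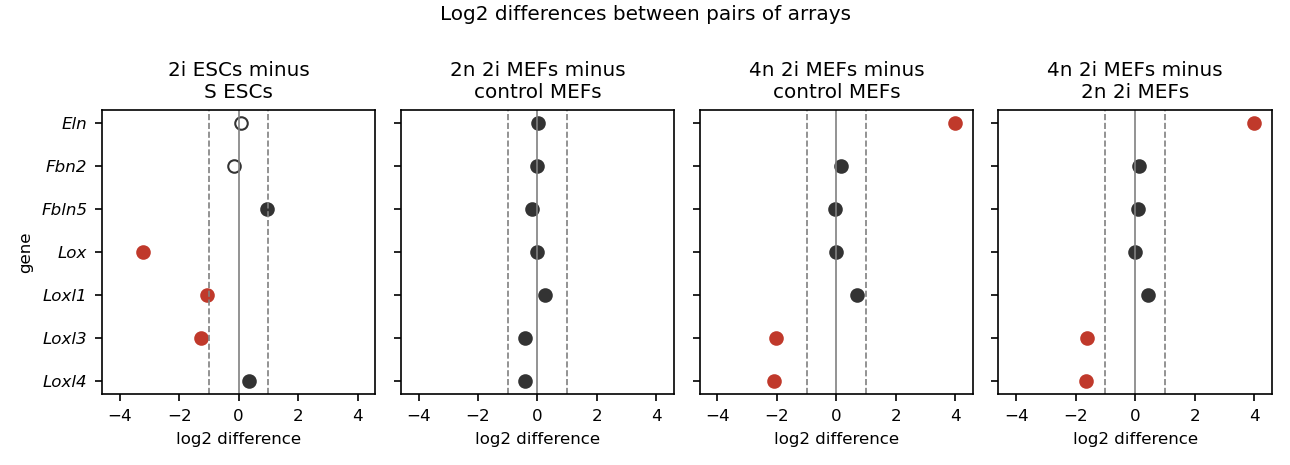
Log2 difference of each measured member in 4 pairs of arrays, with dashed lines at 2-fold; red points lie beyond 2-fold and open points stand for members under the floor on both arrays. The 2n 2i MEF and control MEF pair holds no red point, while Eln lies at 4.00 and Loxl3 and Loxl4 at -2.03 and -2.09 between 4n 2i MEFs and control MEFs.

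Between the 2n 2i MEF and the control array all 7 members lay within 2-fold, where 1.48% of 10130 genes passed 2-fold towards higher 2n signal and 0.424% towards lower. The differences ran from -0.43 for Loxl4 and -0.41 for Loxl3 through -0.17 for Fbln5 to 0.24 for Loxl1. Lox and Fbn2 had identical deposited values on both arrays.

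On the 4n 2i MEF array, elastin was brighter and a pair of lysyl oxidases dimmer than on the control array. Of the 7 members, 1 was at least 2-fold higher and 2 lower, where 5.25% of 10332 genes were higher and 3.42% lower. Beside Eln, Loxl4 was 4.26-fold lower (log2 difference -2.09, rank 43 from the lowest) and Loxl3 4.10-fold lower (-2.03, rank 50). Loxl1 was 1.60-fold higher (0.68), Fbn2 differed by 0.14 and Fbln5 by -0.06. The dimmer probe set of Loxl4 gave -1.93.

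Against the 2n 2i MEF array, the 4n array showed the same members beyond 2-fold. Eln was higher, and Loxl4 (3.16-fold, -1.66) and Loxl3 (3.09-fold, -1.63) were lower. In this pair 3.33% of 10267 genes passed 2-fold towards higher 4n signal and 2.36% towards lower. Both comparisons rest on the single 4n array, so they are not independent of each other.

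**Figure D3:**
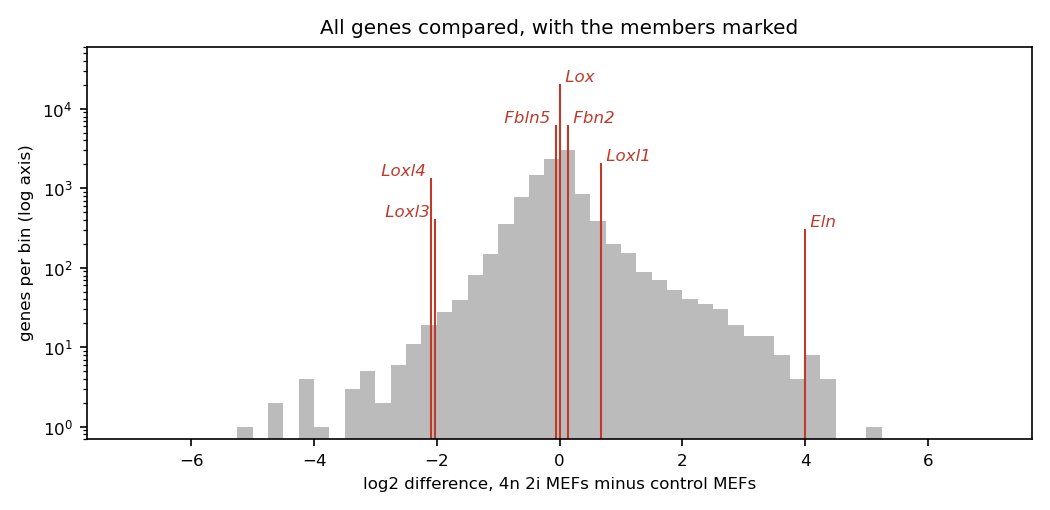
Log2 differences of 10332 genes, 4n 2i MEFs less control MEFs (grey bars, genes per bin on a log axis), with red lines at the 7 measured members; the heights of the lines carry no value. Eln lies in the upper tail at 4.00, Loxl3 and Loxl4 in the lower tail near -2, and the other 4 members near the centre.

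Markers of other cells also differed on the 4n array. Of 10 macrophage markers, 7 reached the floor there and 2 on each of the other MEF arrays, and their summed intensity was 16122 units against 1637 (2n) and 2073 (control). The macrophage markers Ptprc, Cd14 and Itgam stayed under the floor on the 4n array, where a value holds an unknown share of background. Mesothelial markers summed to 9112 (4n), 5653 (2n) and 2725 (control) units, with 7, 7 and 3 of 7 over the floor. The mesothelial markers Bnc1 (560.8, 510.5 and 1083 units) and Krt19 (491.0, 588.4 and 620.5) were brightest on the control array. Smooth muscle markers summed to 37610, 36459 and 34383 units in the same order, with 8, 8 and 7 of 8 over the floor. Acta2, with identical values on the MEF arrays, made up much of these sums, and Des differed, with 1339, 737.9 and 96.31 units. Endothelial markers summed to 1011, 1157 and 947.9 units, with 0, 1 and 1 of 8 over the floor. Fibroblast markers summed to 83420, 73359 and 71328 units, a sum that hides opposite differences. On the 4n array 2 of 12 were at least 2-fold higher than on the control array, among them Lum (3969 against 524.2 units). The 1 lower was S100a4 (1356 against 7578). None of these marker genes is a member, and their part in the Eln, Loxl3 and Loxl4 differences was not tested.

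The genes whose pattern over the 5 arrays lay closest to Eln were C1qc, Wfdc17 and Mpeg1, at Euclidean distances of 0.30, 0.31 and 0.34 between mean-centred log2 values, out of 11825 genes searched. C1qc encodes a chain of complement component C1q and Mpeg1 a pore-forming protein of macrophages. C1qc had 2555 units on the 4n array and 86.04 to 139.2 on the other 4 arrays. The closest genes to Lox were Tnc, a matrix glycoprotein (0.71), Acta2, smooth muscle actin (0.78), and then Prrx1, a mesenchymal transcription factor. Acta2 had identical values on the 3 MEF arrays (16818) and more signal in S ESCs (1348) than in 2i ESCs (208.1). These genes were picked for their closeness to Eln or Lox, so features shared with them follow from the search and are not separate results.

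**Figure D4:**
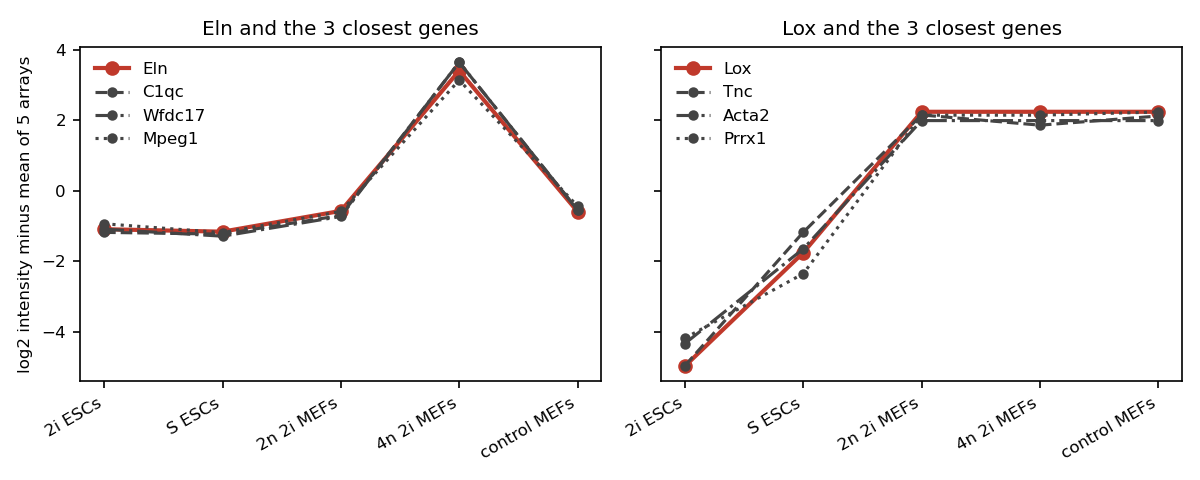
Log2 intensity of Eln (left) and Lox (right) on each of the 5 arrays, less the gene's mean over the arrays, in red, with the 3 closest genes of each in grey. Eln and its neighbours stand high on the 4n 2i MEF array alone, and Lox and its neighbours are lowest on the 2i ESC array and level across the MEF arrays.

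Other genes of the elastic fibre were followed as a list of 27, of which 26 were measured. In ESCs against MEFs, 14 of 24 tested were lower and 1 higher (limma), where 16.3% and 16.6% of all genes tested were. The median log2 difference was -2.22, and that of all genes 0.06. Of the 26, 14 reached the floor on an ESC array. The other genes tested, Efemp1 and Mfap2 among them, entered only through the MEF arrays, which favours a call of lower in ESCs. For all lists, the shares of all genes in each pair of arrays are those given with the members. Efemp1 (-4.73, limma adjusted p = 4.51e-04), a fibulin relative, and Mfap2 (-4.68, limma adjusted p = 0.00277), a microfibril glycoprotein, had large deficits. Fbln2 differed by -3.60 (limma adjusted p = 2.60e-04). The exception was Mmrn2, an endothelial matrix protein, at 3.05 (limma adjusted p = 2.93e-04). Between the ESC arrays 1 of 14 passed 2-fold, Vcan at -1.15, and between the 2n and control MEF arrays 0 of 20 did.

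On the 4n array several microfibril genes were brighter than on the control array. Of 22 compared, 7 were at least 2-fold higher and 2 lower, where 5.25% and 3.42% of all genes compared were. The median was 0.52 against -0.01 for all genes. Mfap4, a microfibril-associated protein, had 5182 units on the 4n array against 1061 (2n) and 944.6 (control). Fbln7 had 788.2 against 208.4 and 185.9, and Ltbp4, which binds latent TGF-beta and assists elastin assembly, 1553 against 499.2 and 408.1. Mfap2 had 10460 against 4202 and 3502. For each of these 4 genes the 4n array was the brightest MEF array and the control array the dimmest. The 2 lower genes, named after their values were seen, were the proteoglycan gene Vcan (-1.31) and Emilin2 (-1.09). Against the 2n array 6 of 22 passed 2-fold, each of them higher, and the median was 0.38.

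Genes that mature lysyl oxidases or supply their copper formed a list of 14. Of 12 tested, 5 were lower in ESCs and 0 higher (limma), where 16.3% and 16.6% of all genes were. The median was -0.38. Postn and Tll1 lay under the floor on both ESC arrays and entered only through the MEF arrays. Among the lower genes were the matricellular Postn (-7.27, limma adjusted p = 3.12e-04), the procollagen proteinase genes Bmp1 (-3.57, limma adjusted p = 2.31e-04) and Tll1 (-2.87, limma adjusted p = 0.0362), and Pcolce (-1.67, limma adjusted p = 4.51e-04), which enhances that proteinase activity. The copper transporter genes Atp7a (-0.03, limma adjusted p = 0.941) and Slc31a1 (-0.18, limma adjusted p = 0.340), named after their values were seen, did not pass. On the 4n array 2 of 12 were at least 2-fold lower than on the control array and 0 higher, where 3.42% and 5.25% of all genes were. The lower genes were Pcolce2 (170.7 units against 1311) and Tll1 (280.8 against 1623), which had 1003 and 1027 units on the 2n array. In the pair of ESC arrays, and in the 2n and control MEF pair, 0 genes of this list lay beyond 2-fold.

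The fibrillar collagens and lysyl hydroxylases, which make the other substrate of these enzymes, had 8 of 12 genes called lower in ESCs (limma adjusted p below 0.05 and 2-fold) and 0 higher. Over all genes tested, 16.3% were called lower and 16.6% higher. Of the 12, 8 reached the floor on an ESC array. The rest, Col3a1 and Col11a1 among them, entered only through the MEF arrays. Plod2 (-0.86, limma adjusted p = 0.151) did not pass. Col1a1 differed by -4.81 (limma adjusted p = 4.05e-04) and Col1a2 by -4.72 (limma adjusted p = 5.22e-04). On the 4n array 3 of 12 were at least 2-fold higher than on the control array and 0 lower: Col3a1 (1.40), the lysyl hydroxylase gene Plod2 (1.17) and Col11a1 (1.09). Of all genes compared in this pair, 5.25% were higher and 3.42% lower. None of the 12 lay beyond 2-fold between the 4n and 2n arrays or the 2n and control arrays.

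Of 12 measured proteases able to degrade elastin, 7 were tested between cell types, and 5 were lower in ESCs and 0 higher. Over all genes tested, 16.3% were lower and 16.6% higher. Of the 7, 3 reached the floor on an ESC array, and the rest, Ctsk among them, entered only through the MEF arrays. Ctsk, a cysteine protease, differed by -4.87 (limma adjusted p = 3.39e-04) and Mmp14 by -4.23 (limma adjusted p = 0.00227). Between the ESC arrays 2 of 3 were at least 2-fold lower in 2i ESCs, Mmp14 (-1.37) and Mmp2 (-1.15), and between the 2n and control MEF arrays 0 of 5 passed 2-fold. On the 4n array 2 of 7 were at least 2-fold higher than on the control array and 0 lower, where 5.25% and 3.42% of all genes were. Mmp12, the macrophage elastase, had 698.1 units against 113.7 on the control array and 95.64 on the 2n array. Ctss, a lysosomal protease of antigen-presenting cells, had 409.6 against 95.97 and 90.49. Both lay under the floor on the other 4 arrays.

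Among 10 receptors of elastin and fibrillin, 9 were tested and 5 were lower in ESCs, where 16.3% of all genes tested were. Itgb1 differed by -2.23 (limma adjusted p = 0.00103). Between the ESC arrays 1 of 8 passed 2-fold, Itga5 at -1.63. The integrin gene Itga8 was the 1 of 9 beyond 2-fold on the 4n array, with 1726 units against 331.2 (control) and 297.3 (2n). Like Eln, it was brighter on the 4n array than on either of the other MEF arrays.

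**Figure D5:**
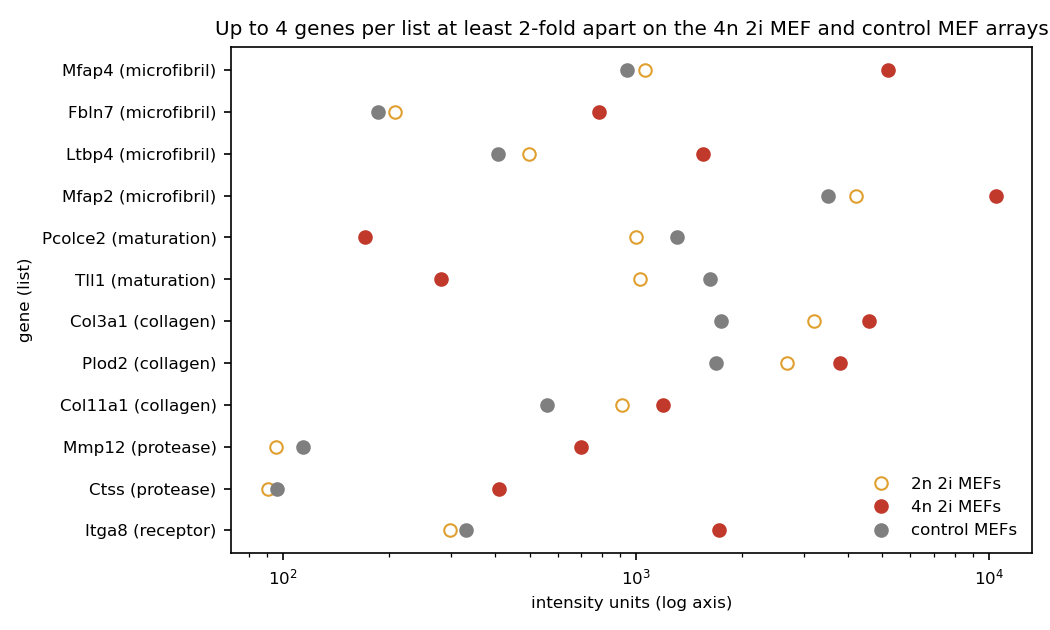
Intensity (log axis) on the 3 MEF arrays of up to 4 genes per list that lay at least 2-fold apart on the 4n 2i MEF (red) and control MEF (grey) arrays; open circles mark the 2n 2i MEF array. Mfap4, Fbln7, Ltbp4 and Mfap2 stand highest on the 4n array, and Pcolce2 and Tll1 lowest.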

How the data were processed

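Biotin-labelled total RNA of 5 samples was hybridised to arrays, as the labels' protocols state. The authors deposited linear intensity values for 28853 probe sets; background correction, summarisation and normalization are not given in the sources used here. Medians of the columns ran from 170.2 to 192.0 intensity units. Symbols came from the platform table (21789 probe sets of 1 gene), updated by Entrez number to the RefSeq table of GRCm38.p6 (21698 matched). The brightest probe set stood for a gene. The 2 ESC and 3 MEF arrays were compared with limma (lmFit, eBayes, Benjamini-Hochberg over all genes tested, 3 residual degrees of freedom). Pairs of arrays were compared by log2 difference only. The limma step was run on simulated data with independent noise on each array. Identical values, which 33.2% of genes tested had on at least 2 MEF arrays, were not simulated, so their effect on the p-values was not checked. The labels do not say that samples came from separate cultures or embryos, so p-values measure the spread between these arrays. Members and lists were chosen with earlier results of these data known. Named were the members, up to 4 genes per list and comparison past the call with the largest difference, and the 3 genes closest to Eln and Lox. Alternatives were quantile normalization, a pseudocount of 16, a threshold of 3-fold, the floor at the 75th percentile or left out, averaged probe sets, another variance prior, leaving out genes of identical values and leaving out each array. Python 3.11.15, pandas 2.3.3, R 4.3.3 and limma 3.58.1 were used.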

Additional observations from a re-analysis of the deposited data

How the results depend on the processing

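No value of a single member beyond the threshold changed sign under any alternative run. Over all 237 values of single members still compared under alternatives, called or not, 229 kept their call, 6 lost it and 2 gained it. Of the 6, 4 were Loxl3 with an array left out, which lost the adjusted p and stayed beyond 2-fold. Further calls fell away because the member was no longer compared, and these are outside the 237. With the floor at the 75th percentile these were Lox, Loxl1 and Loxl3 (2i against S ESCs) and Loxl4 (4n against 2n MEFs). Without the genes of identical MEF values they were Lox and Fbn2 (ESCs against MEFs). The number of members lower in ESCs than in MEFs was 5, and 4 to 6 on leaving out each array in turn. It was 3 without the genes of identical MEF values, because Lox and Fbn2 were then not tested. Between the 2i and S ESC arrays the number of lower members, 3, was 0 with the floor at the 75th percentile and 1 with a threshold of 3-fold, and the number of higher members was 1 after quantile normalization. Between the 4n and 2n 2i MEF arrays the number of lower members, 2, was 1 with the floor at the 75th percentile. No paired analysis was possible because each group had 1 array. Values near or under the floor, among them all ESC values of Eln and Fbn2, are limited by the background signal.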
